A study of Homo sapiens with 6 samples.

Results

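The genes described here are the host genes of small nucleolar RNAs (snoRNAs) and of microRNAs, transcripts that carry a small RNA in an intron or exon. They were taken by name, as SNHG with a number, GAS5, and names that begin with MIR and end in HG, and entries that share a name were added together. The rule found 104 genes of the 34644 gene names in the files, of which 29 are snoRNA hosts and 75 are microRNA hosts. The rule itself uses names only, although it was chosen with earlier results of these data known.

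The libraries came from HK-2, an immortalized human proximal tubular epithelial line, in which the level of PRDM16, a zinc finger transcription regulator, was raised with a lentivirus. Cells with the negative control lentivirus (IR+NC-LV, 3 libraries) were compared with cells with the PRDM16 lentivirus (IR+PR-LV, 3 libraries). Both groups received 8 Gy of X-rays and were collected at day 7, so the comparison concerns PRDM16 in irradiated cells and not irradiation itself. The cells were puromycin-selected pools, and only polyadenylated RNA was sequenced, so the host transcripts were counted and the snoRNAs and mature microRNAs themselves were not.

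A snoRNA is cut out of a spliced intron of its host and joins a protein particle that modifies ribosomal RNA. Box C/D snoRNAs guide methylation and box H/ACA snoRNAs guide pseudouridylation, while scaRNAs do the same for spliceosomal RNAs. The spliced exons of many hosts encode no protein, begin with a run of pyrimidines as ribosomal protein genes do, and are removed by nonsense-mediated decay when they are translated. A microRNA is cut from its host by Drosha and then Dicer, and pairs with target messages through its seed, the bases 2 to 8.

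The total count per library was 13407074 to 28540041. PRDM16 had 2, 0 and 1 counts with the control lentivirus and 14, 10 and 8 with the PRDM16 lentivirus, too few for its fold change to be tested here. Epithelial keratins were high, with KRT8 at 772 to 969 TPM (counts corrected for gene length and library total, a level per length), while the proximal tubule genes LRP2, SLC22A6 and HNF4A had 1 to 4 counts in all libraries together. Of the blood markers PTPRC had 10 counts and CD3E had 2 in all, and CD68, which epithelial lysosomes also hold, was at 154 to 199 TPM.

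The microRNAs inside the named hosts are given first, because the host transcript is the only trace of them in these libraries. The RefSeq entries used here (GRCh38.p14) place 107 microRNA genes inside 64 of the 104 hosts on the host's strand. Of these genes, 68 lie in an intron of the host and 39 in or across an exon. The entries place none in MIR124-1HG, MIR124-2HG, MIR2052HG, MIR378D2HG and MIR3150BHG, among others. Whether the entries are complete for these hosts was not checked, so the totals may be too low. The sequences below are mature microRNAs read 5′ to 3′ from RefSeq, with the seed in capitals, for the hosts that lead in level or are described further on.
hsa-miR-146a-5p (MIR3142HG, chr5:160485372-160485393, plus strand): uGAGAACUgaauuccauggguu
hsa-miR-155-5p (MIR155HG, chr21:25573983-25574006, plus strand): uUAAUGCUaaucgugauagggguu
hsa-miR-17-5p (MIR17HG, chr13:91350618-91350640, plus strand): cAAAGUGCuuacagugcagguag
hsa-miR-20a-5p (MIR17HG, chr13:91351072-91351094, plus strand): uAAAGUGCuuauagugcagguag
hsa-miR-19a-3p (MIR17HG, chr13:91350939-91350961, plus strand): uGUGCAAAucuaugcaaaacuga
hsa-miR-19b-3p (MIR17HG, chr13:91351245-91351267, plus strand): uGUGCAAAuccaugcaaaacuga
hsa-miR-92a-3p (MIR17HG, chr13:91351361-91351382, plus strand): uAUUGCACuugucccggccugu
hsa-let-7a-5p (MIR100HG, chr11:122146568-122146589, minus strand): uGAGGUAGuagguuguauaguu
hsa-let-7c-5p (MIR99AHG, chr21:16539838-16539859, plus strand): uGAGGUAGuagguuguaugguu
hsa-miR-100-5p (MIR100HG, chr11:122152275-122152296, minus strand): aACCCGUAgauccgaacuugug
hsa-miR-99a-5p (MIR99AHG, chr21:16539101-16539122, plus strand): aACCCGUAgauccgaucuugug
hsa-miR-125b-5p (MIR100HG, chr11:122099809-122099830, minus strand): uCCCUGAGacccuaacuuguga
hsa-miR-23a-3p (MIR23AHG, chr19:13836595-13836615, minus strand): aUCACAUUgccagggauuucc
hsa-miR-27a-3p (MIR23AHG, chr19:13836447-13836467, minus strand): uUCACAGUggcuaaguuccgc
hsa-miR-24-3p (MIR23AHG, chr19:13836289-13836310, minus strand): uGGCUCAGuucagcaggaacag
hsa-miR-210-3p (MIR210HG, chr11:568112-568133, minus strand): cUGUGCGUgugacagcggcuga
hsa-miR-34a-5p (MIR34AHG, chr1:9151735-9151756, minus strand): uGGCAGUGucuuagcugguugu
hsa-miR-31-5p (MIR31HG, chr9:21512158-21512178, minus strand): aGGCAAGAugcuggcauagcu
hsa-miR-22-3p (MIR22HG, chr17:1713914-1713935, minus strand): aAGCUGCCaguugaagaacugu
hsa-miR-193b-3p (MIR193BHG, chr16:14304017-14304038, plus strand): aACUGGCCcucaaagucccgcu
The seed AAAGUGC is shared by hsa-miR-17-5p and hsa-miR-20a-5p, and GUGCAAA by hsa-miR-19a-3p and hsa-miR-19b-3p, all from the 1 transcript MIR17HG. The seeds of let-7, miR-100 and miR-125b each occur in both MIR100HG and MIR99AHG, which lie on different chromosomes, and the mature hsa-miR-125b-5p is the same in both. The let-7 seed GAGGUAG occurs in 7 mature microRNAs of 6 hosts.

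The bases around the annotated start of 8 snoRNA hosts are shown because the class is known for a pyrimidine run at the start, and they show both windows with the run at the first base and windows with the run beside it. Each line gives 20 bases before the RefSeq start (GRCh38.p14), the first transcribed base and 20 bases after it, with the longest run of C and T letters in capitals.
SNHG12 (chr1:28581853-28581893, minus strand): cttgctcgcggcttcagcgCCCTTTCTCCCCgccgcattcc
SNHG4 (chr5:139274081-139274121, plus strand): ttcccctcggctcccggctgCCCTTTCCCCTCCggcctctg
SNHG29 (chr17:16438967-16439007, plus strand): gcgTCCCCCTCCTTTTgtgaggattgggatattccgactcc
SNHG16 (chr17:76557744-76557784, plus strand): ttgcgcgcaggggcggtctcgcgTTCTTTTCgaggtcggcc
SNHG32 (chr6:31834896-31834936, plus strand): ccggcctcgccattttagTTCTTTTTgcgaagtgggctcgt
SNHG5 (chr6:85678713-85678753, minus strand): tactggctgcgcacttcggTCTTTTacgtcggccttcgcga
SNHG8 (chr4:118278742-118278782, plus strand): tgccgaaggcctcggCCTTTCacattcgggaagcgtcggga
SNHG3 (chr1:28505923-28505963, plus strand): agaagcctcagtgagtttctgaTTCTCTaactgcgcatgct
The run of SNHG4 is 13 bases long and begins at the first base, and that of SNHG12 is 12 bases long and begins 1 base before it. The runs of SNHG32, SNHG5 and SNHG8 also hold the first base, while that of SNHG29 ends 5 bases before it and those of SNHG16 and SNHG3 begin 3 and 2 bases after it. In the windows of GAS5, SNHG1, SNHG17, SNHG7, SNHG30 and SNHG11, which are not shown, the longest run did not hold the first base either, although in SNHG7 a shorter run of 6 bases did. The table's start lies 349 bases (SNHG4) and 1110 bases (SNHG12) inside the gene as the files draw it, and at the same base for the other 6. For the windows not shown, the start of GAS5 lies 163 bases outside the gene as counted and that of SNHG17 lies 49 bases inside it. Neither of these windows reaches the start of the gene as counted, so the bases there were not examined. Anywhere in the window, a run of at least 6 pyrimidines on the sense strand was found in 18 of 25 snoRNA hosts with an entry (72%), in 24 of 56 microRNA hosts (42.9%) and in 39.5% of all 35116 promoters. A run of this length that held the first base was found in 8 of the 25 snoRNA hosts (32%), 6 of the 56 microRNA hosts (10.7%) and 7.41% of all promoters. Runs of at least 10 anywhere in the window were found in 6 snoRNA hosts (24%), against 8.68% of all promoters. Each host was counted at 1 start, while the promoters were all counted without keeping only 1 for each gene. No direction between the groups was read from these runs, and a link was not tested. Of the shown hosts whose run holds the first base, SNHG12 (-0.38), SNHG8 (-0.28) and SNHG5 (-0.17) had a log2 fold change below 0. SNHG4 (0.29) and SNHG32 (0.27) lay above 0.

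The level of the class was held by few genes. GAS5, which accumulates in growth-arrested cells, was the highest host, with 1145, 1086 and 1175 TPM in IR+NC-LV replicates 1, 2 and 3 and 966, 1108 and 1128 TPM in the IR+PR-LV replicates. It stood at rank 107 of all gene names and made up 32.7% to 35.4% of the summed TPM of the 104 hosts in a library. The 5 highest hosts, GAS5, SNHG29, SNHG1, SNHG6 and SNHG8, held 62.1% to 64.4%, and the 20 highest held 92.4% to 92.9%. These shares differed little between libraries of the same group and between groups.

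SNHG29, host of SNORD49A, SNORD49B and SNORD65, followed with a mean of 333 TPM, and SNHG1, host of the box C/D snoRNAs SNORD22, SNORD25 and SNORD30 among others, with 246 TPM. SNHG6 was at 241 TPM, SNHG8 at 154 TPM, SNHG5 at 151 TPM, SNHG16 at 140 TPM and SNHG15 at 105 TPM. The ranges of SNHG1 and SNHG6 over the 6 libraries overlapped, with 223 to 270 TPM and 195 to 269 TPM, and so did those of SNHG8 and SNHG5. Within libraries SNHG1 lay below SNHG6 in IR+NC-LV replicates 1 and 2 (235 and 233 against 269 and 266 TPM). In replicate 3 they were close (259 against 256). In the IR+PR-LV replicates SNHG1 lay above SNHG6, with 223, 253 and 270 against 195, 217 and 241 TPM. The first microRNA hosts were MIR155HG at 78.0 TPM and MIR3142HG at 71.9 TPM, whose ranges over the libraries overlapped with each other and with that of SNHG3.

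Across all hosts, 22 had at least 1000 counts in the 6 libraries together, and 17 of these were snoRNA hosts. A further 20 had from 100 to under 1000, 26 had 10 to 99 and 15 had 1 to 9. The 21 hosts without a count were all microRNA hosts, and for a host that shares no exon with another gene 0 counts in the 6 libraries allows a level of up to 0.026 CPM (counts scaled to the total of the library). The 104 hosts together held 0.147% to 0.151% of the counts of an IR+NC-LV library and 0.134% to 0.147% of an IR+PR-LV library. By family, snoRNA hosts held 0.119% to 0.124% against 0.109% to 0.117%, and microRNA hosts 0.0263% to 0.028% against 0.0252% to 0.0292%. The snoRNA host share was lower in each IR+PR-LV library than in each IR+NC-LV library, while the microRNA host shares overlapped. Such a sum mostly follows the hosts with the most counts, such as GAS5 and SNHG29, and does not describe each host. By log2 fold change, 16 of the 26 tested snoRNA hosts were lower in IR+PR-LV and 10 were higher.

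Of the hosts, 6 are listed at more than 1 place, and for 5 of them the counts lay mostly on copies outside the assembled chromosomes. MIR22HG had all 169 of its counts on such a copy and none on chromosome 17, MIR210HG had 288 of 291, MIR23AHG 71 of 74, SNHG32 1012 of 1023 and MIR570HG 82 of 86. MIR124-1HG had no count at either place. How reads that match several copies were treated is not given in the sources used here, so the levels of these hosts are uncertain.

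Some hosts also share exon bases with a neighbouring gene, and whether the counting used the strand is not given. MCMDC2 on the other strand covers 59.8% of the exon bases of SNHG6, LRRC75A covers 18% of SNHG29, and GAS5-AS1 and ZBTB37 cover 13.8% of GAS5. On the same strand 6 hosts share bases, and MATR3 covers 16.3% of SNHG4, SEC14L1 22.5% of SNHG20, RCC1 6.44% of SNHG3, VSIG8 11.6% of SNHG28, and SNRPN, SNURF, IPW and further transcripts of that locus 20.7% of SNHG14. The exon of MIR600HG lies wholly within STRBP (100%), so its 0 counts set no limit on its level.

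Of the 104 hosts, 54 passed the filter on low counts and were tested for IR+PR-LV against IR+NC-LV, while 29 with 1 to 68 counts in all did not pass and 21 had none. None of the 54 passed an adjusted p of 0.05 in edgeR's quasi-likelihood test, where 0.0797% of the 15054 genes tested did, that is 12 genes. DESeq2 called 2 of the 49 hosts to which it gave an adjusted p, SNHG15 and SNHG17, beside 1.02% of all genes with one. At an unadjusted p under 0.05 edgeR gave 10 hosts (18.5% of those tested), against 10.5% of all genes. Of these 10, 7 were lower in IR+PR-LV, which held for 6.09% of all genes, and 3 were higher, which held for 4.41% of all genes.

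The values are given by family next, and the difference between the families was not tested. Among the 26 tested snoRNA hosts, 8 had an unadjusted p under 0.05 (30.8%), and 7 of the 8 were lower. Among the 28 tested microRNA hosts 2 had (7.14%), both higher, beside the same 10.5% of all genes. The median log2 fold change was -0.08 over the snoRNA hosts and 0.10 over the microRNA hosts, beside 0.01 over all 54 hosts and 0.00 over all genes tested. In 8 hosts every IR+PR-LV library lay below every IR+NC-LV library in CPM (9.56% of all genes), and in 3 hosts every one lay above (7.45% of all genes). Groups without overlap were thus seen in 11 of 54 hosts, beside 17% of all genes. The labels do not say that the libraries of a group came from separate cultures, so p-values measure the spread between these libraries, which may be technical.

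**Figure D1:**
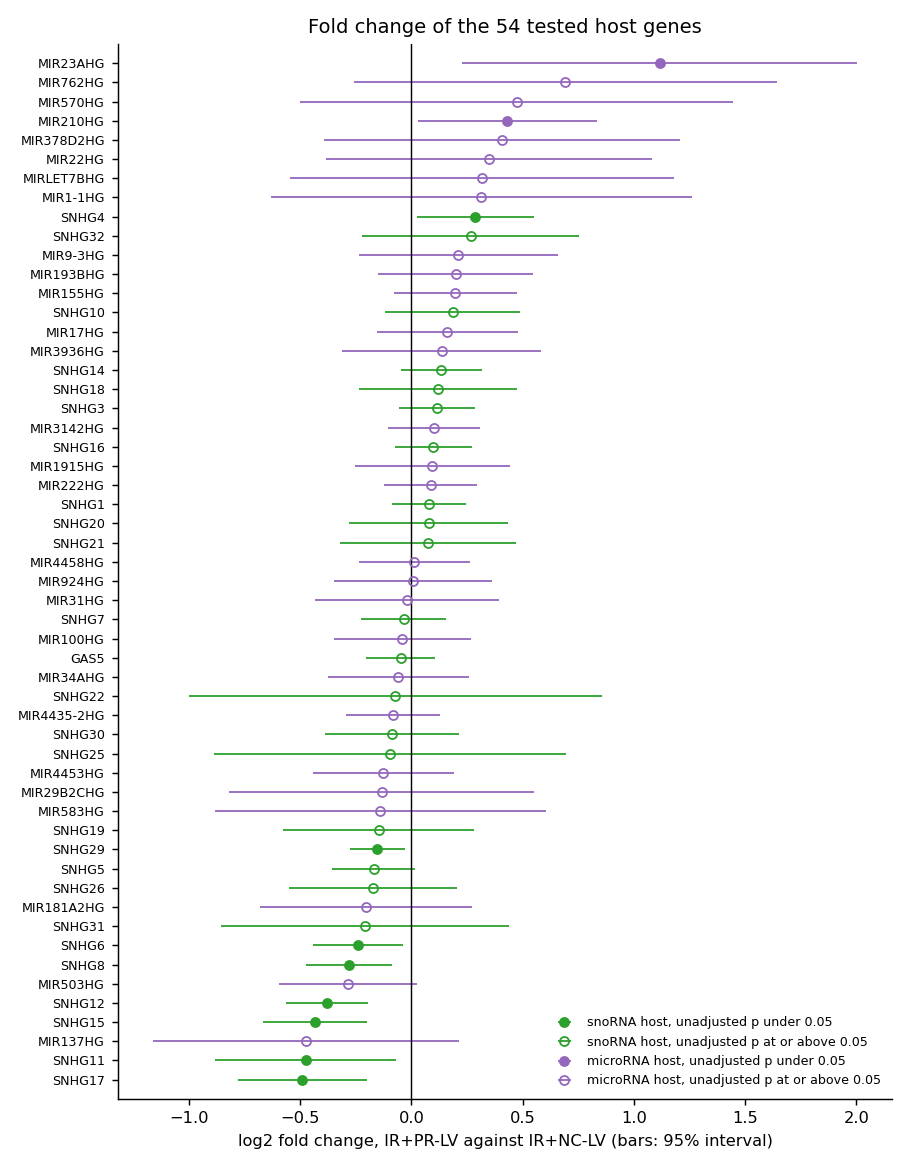
Log2 fold change of IR+PR-LV against IR+NC-LV for the 54 tested host genes, with 95% intervals from edgeR, snoRNA hosts in green and microRNA hosts in purple, filled where the unadjusted p was under 0.05. The 7 filled points to the left of 0 are all snoRNA hosts, from SNHG17 at -0.49 to SNHG29 at -0.15, and wide intervals belong to hosts with few counts.

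The box H/ACA hosts are described first. SNHG12 (chr1, 28578538 to 28582983, minus strand) holds SNORA16A, SNORA44, SNORA61 and the box C/D snoRNA SNORD99. Its level was 36.6, 32.4 and 35.8 CPM in IR+NC-LV replicates 1, 2 and 3 (34.9 ± 2.24, SD, n = 3) and 25.8, 27.6 and 27.1 CPM with the PRDM16 lentivirus (26.8 ± 0.931). All IR+PR-LV libraries were lower and the groups were apart by more than their spread. The ratio was 0.769, with a log2 fold change of -0.38 ± 0.08 (SE, 95% interval -0.56 to -0.20), an unadjusted p of 0.00102 and an adjusted p of 0.152 in edgeR. This was the smallest adjusted p of any host.

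SNHG15 (chr7, 44983023 to 44986696, minus strand) holds SNORA9 in an intron, and its RNA is known to be short-lived. The level was 36.1, 33.8 and 38.9 CPM in IR+NC-LV (36.3 ± 2.58) and 30.8, 24.2 and 25.7 CPM with the PRDM16 lentivirus (26.9 ± 3.45). Replicate 1 of IR+PR-LV was the closest to the control libraries and still below them. This gave a log2 fold change of -0.43 ± 0.11, with an adjusted p of 0.199 in edgeR and 0.0408 in DESeq2.

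SNHG17 (chr20, 38420588 to 38435377, minus strand) holds SNORA71A, SNORA71B, SNORA71C and SNORA71D. Its level was 34.9, 28.1 and 38.6 CPM in IR+NC-LV (33.9 ± 5.32) and 27.4, 21.7 and 23.2 CPM with the PRDM16 lentivirus (24.1 ± 2.92). The groups did not overlap, although IR+NC-LV replicate 2 and IR+PR-LV replicate 1 were less than 1 CPM apart. The log2 fold change was -0.49 ± 0.13, with an adjusted p of 0.241 in edgeR and 0.0431 in DESeq2.

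SNHG11 starts 11276 bases beyond SNHG17 on the other strand of chromosome 20 and holds SNORA60 and SNORA71E, so that the pair carries all members of the SNORA71 family found inside these hosts. It was at 6.79, 7.07 and 9.50 CPM in IR+NC-LV (7.79 ± 1.49) and 6.79, 5.11 and 4.90 CPM with the PRDM16 lentivirus (5.60 ± 1.03). The lowest control library and the highest IR+PR-LV library were nearly equal, and the log2 fold change of -0.48 ± 0.18 had an adjusted p of 0.409 in edgeR. Without IR+NC-LV replicate 3, the highest library, the value was -0.31.

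SNHG8 (chr4, 118278762 to 118279823, plus strand) holds SNORA24 in its intron. Its level was 33.7, 30.1 and 31.7 CPM in IR+NC-LV (31.9 ± 1.80) and 28.0, 24.6 and 26.2 CPM with the PRDM16 lentivirus (26.3 ± 1.69). Every IR+PR-LV library was below every control library. On the log2 scale the difference was -0.28 ± 0.09, with an adjusted p of 0.324 in edgeR.

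SNHG4, host of SNORA74A and SNORA74D, lay the other way. It was at 13.0, 13.2 and 12.1 CPM in IR+NC-LV (12.8 ± 0.585) and 14.5, 14.4 and 18.0 CPM with the PRDM16 lentivirus (15.6 ± 2.02), with no overlap and with replicate 3 of IR+PR-LV far above the rest. Its log2 fold change of 0.29 ± 0.12 had an adjusted p of 0.432 in edgeR, and without that replicate it was 0.18. SNHG3, host of SNORA73A and SNORA73B, which take part in cutting the ribosomal RNA precursor, was at 46.4 to 50.2 CPM in IR+NC-LV and 49.7 to 56.6 CPM with the PRDM16 lentivirus, a log2 fold change of 0.12 ± 0.08. SNHG7, host of SNORA17A and SNORA17B, had overlapping groups and a log2 fold change of -0.03 ± 0.08.

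**Figure D2:**
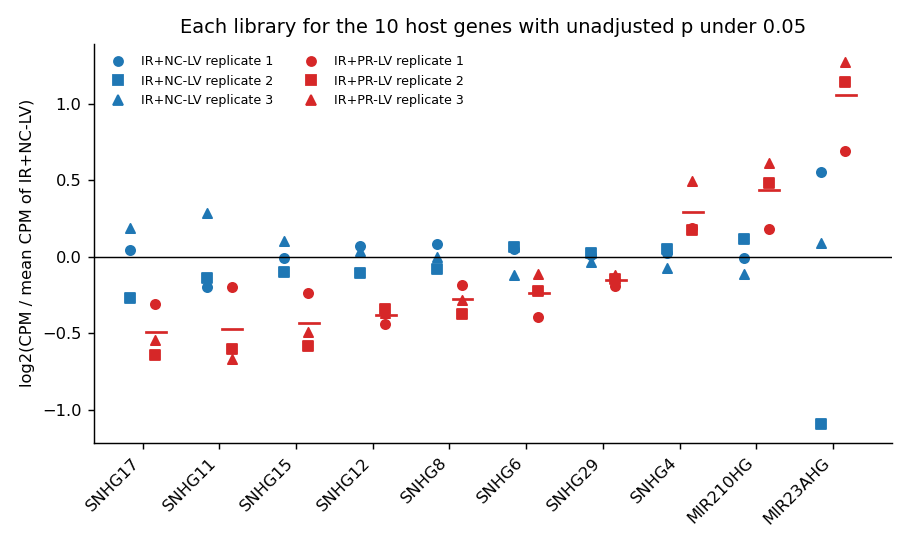
Level of each library relative to the IR+NC-LV mean (log2 of the CPM ratio) for the 10 host genes with an unadjusted p under 0.05, with IR+NC-LV in blue, IR+PR-LV in red and a red bar at the IR+PR-LV mean. Red points lie below 0 for the 7 genes at the left and above 0 for SNHG4, MIR210HG and MIR23AHG, and the blue points of MIR23AHG span the widest range.

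Of the hosts with a listed box C/D snoRNA, SNHG29 (chr17, 16438987 to 16470648, plus strand) was measured with the most counts. It was at 272, 275 and 263 CPM in IR+NC-LV (269.9 ± 5.96) and 237, 244 and 248 CPM with the PRDM16 lentivirus (243 ± 5.78). The groups were apart by several times their SD, but the ratio was only 0.900. The log2 fold change of -0.15 ± 0.06 had an unadjusted p of 0.0211 and an adjusted p of 0.391 in edgeR.

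SNHG6 lies on chromosome 8 and holds SNORD87. Its level was 58.9, 59.3 and 52.2 CPM in IR+NC-LV (56.8 ± 3.94) and 43.2, 48.5 and 52.5 CPM with the PRDM16 lentivirus (48.1 ± 4.68), so that IR+PR-LV replicate 3 reached the lowest control library. Its log2 fold change of -0.24 ± 0.09 had an adjusted p of 0.396 in edgeR, and over the bases shared with MCMDC2 the reads of both genes cannot be told apart unless the counting used the strand.

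SNHG5, host of SNORD50B, was at 24.3, 24.6 and 25.3 CPM in IR+NC-LV (24.8 ± 0.524) and 23.3, 21.2 and 21.5 CPM with the PRDM16 lentivirus (22.0 ± 1.14). The groups did not overlap, and the log2 fold change of -0.17 ± 0.08 had an unadjusted p of 0.0683. SNHG1 was at 110.1, 111 and 113 CPM in IR+NC-LV and 106, 121 and 126 CPM with the PRDM16 lentivirus, a log2 fold change of 0.08 ± 0.07. SNHG16, host of SNORD1A, SNORD1B and SNORD1C, gave 0.10 ± 0.08, and 0.029 without IR+NC-LV replicate 3. In both genes the groups overlapped.

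GAS5 is known as a host of box C/D snoRNAs, although the annotation used lists none inside it. It was at 299, 289 and 287 CPM in IR+NC-LV (292 ± 6.72) and 256, 296 and 294 CPM with the PRDM16 lentivirus (282 ± 22.8). Replicate 1 of IR+PR-LV was low and the other two libraries were among the controls. The log2 fold change was -0.05 ± 0.07 (95% interval -0.20 to 0.11), and without that replicate it was 0.02. SNHG14, the long transcript of the Prader-Willi region that holds 83 box C/D snoRNA loci in the annotation used, was at 53.0 to 61.8 CPM in IR+NC-LV and 58.8 to 66.1 CPM with the PRDM16 lentivirus, with a log2 fold change of 0.13 ± 0.08.

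Grouped by the names of the snoRNAs inside them (SNORA or SNORD in GENCODE release 29), the 8 tested hosts of box H/ACA snoRNAs alone had a median log2 fold change of -0.24, with 4 lower and 1 higher at an unadjusted p under 0.05. The 12 hosts of box C/D snoRNAs alone had a median of -0.09, with 2 lower and none higher, where 6.09% of all genes were lower and 4.41% higher at that p. SNHG12, the host of both kinds, was at -0.38. The 5 hosts for which that annotation lists neither kind, GAS5 among them, with SNHG10, SNHG20, SNHG21 and SNHG22, had a median of 0.07 and none with an unadjusted p under 0.05. This grouping was made after the values had been seen, and the difference between the kinds was not tested.

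**Figure D3:**
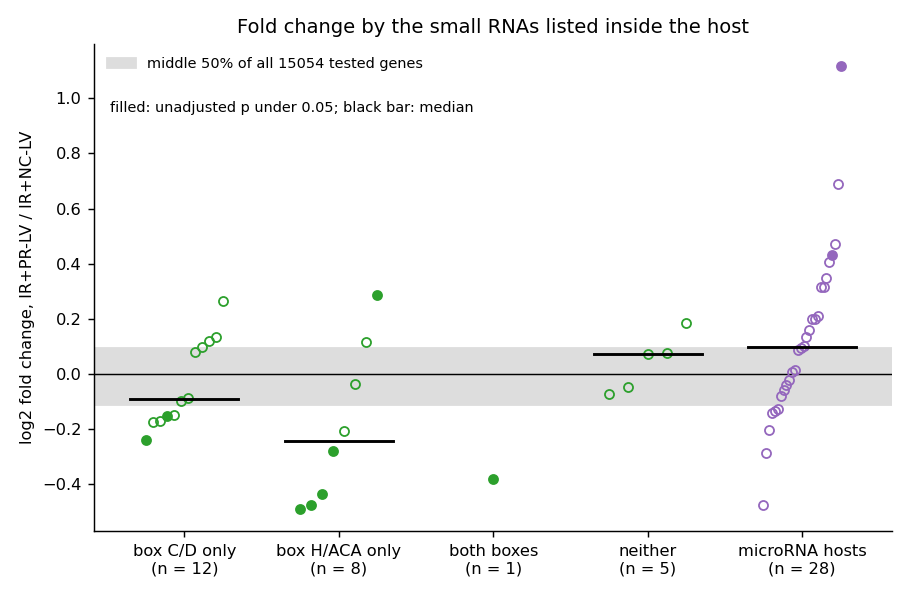
Log2 fold change of the tested hosts by the kind of small RNA inside them, with filled points for an unadjusted p under 0.05, a black bar at the median and a grey band for the middle 50% of all 15054 tested genes. Box H/ACA hosts reach from -0.49 to 0.29 around a median of -0.24, and microRNA hosts spread on both sides of a median of 0.10.

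The microRNA hosts were fewer in reads. MIR155HG, whose exon holds miR-155, a microRNA of inflammatory signalling, was at 32.0, 36.6 and 30.0 CPM in IR+NC-LV (32.9 ± 3.40) and 30.9, 42.2 and 40.0 CPM with the PRDM16 lentivirus (37.7 ± 6.00). IR+PR-LV replicates 2 and 3 were the highest libraries and replicate 1 lay among the controls. The log2 fold change was 0.20 ± 0.12, with an adjusted p of 0.623 in edgeR, and it was 0.32 without replicate 1 of IR+PR-LV and 0.11 without replicate 2. MIR3142HG, which holds miR-146a, a brake on the same signalling, was at 50.7, 54.1 and 43.1 CPM in IR+NC-LV and 50.5, 52.2 and 56.3 CPM with the PRDM16 lentivirus, with overlapping groups and a log2 fold change of 0.10 ± 0.09, which was 0.017 without IR+NC-LV replicate 3.

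MIR17HG, host of the miR-17 to miR-92a cluster, was at 6.85, 7.31 and 7.41 CPM in IR+NC-LV (7.19 ± 0.298) and 6.96, 7.80 and 9.36 CPM with the PRDM16 lentivirus (8.04 ± 1.21). The groups overlapped and the log2 fold change was 0.16 ± 0.14, or 0.043 without IR+PR-LV replicate 3. MIR34AHG, host of the p53-induced miR-34a, was at 3.81, 4.18 and 3.81 CPM in IR+NC-LV and 3.63, 3.76 and 3.97 CPM with the PRDM16 lentivirus, a log2 fold change of -0.06 ± 0.14. MIR31HG, a transcript known from work on senescence, was at 3.40, 3.08 and 4.61 CPM and 3.27, 3.61 and 3.92 CPM, with a log2 fold change of -0.02 ± 0.18 (95% interval -0.43 to 0.39).

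MIR210HG, whose intron holds the hypoxia microRNA miR-210, was at 2.09, 2.28 and 1.94 CPM in IR+NC-LV (2.10 ± 0.168) and 2.38, 2.93 and 3.21 CPM with the PRDM16 lentivirus (2.84 ± 0.422). Every IR+PR-LV library was above every control library, and the log2 fold change of 0.43 ± 0.18 had an unadjusted p of 0.0380 and an adjusted p of 0.447 in edgeR. MIR23AHG, host of miR-23a, miR-27a and miR-24-2, had 10, 4 and 6 counts in IR+NC-LV and 11, 25 and 18 counts in IR+PR-LV. Its log2 fold change of 1.12 ± 0.40 had an adjusted p of 0.388 in edgeR, and without IR+NC-LV replicate 2, the lowest library, it was 0.70. Both genes were read almost wholly from a copy outside the chromosomes.

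MIR503HG, an X-linked host of miR-503, was at 5.84, 5.93 and 7.12 CPM in IR+NC-LV (6.30 ± 0.717) and 5.18, 5.11 and 5.17 CPM with the PRDM16 lentivirus (5.15 ± 0.0346). The groups did not overlap, and the log2 fold change of -0.28 ± 0.14 had an unadjusted p of 0.0677. MIR4435-2HG gave -0.08 ± 0.09, MIR100HG -0.04 ± 0.14, MIR193BHG 0.20 ± 0.16 and MIR22HG 0.35 ± 0.33 on the log2 scale, each with overlapping groups, and MIR22HG was at 0.017 without IR+PR-LV replicate 3. MIR99AHG, which shares 3 seeds with MIR100HG, had 19 counts in the 6 libraries and was not tested.

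Precision followed the counts. In the 22 hosts with at least 1000 counts the median coefficient of variation within a group was 7.02% for the control libraries and 7.84% for the IR+PR-LV libraries, and the median SE of the log2 fold change was 0.09. In the 12 tested hosts with under 100 counts these were 33.0%, 25.2% and 0.37. The 17 snoRNA hosts with at least 1000 counts had 7 with an unadjusted p under 0.05 (41.2%), beside 10.6% of the 10090 tested genes with at least 1000 counts.

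The genes that serve these small RNAs were read from lists by role. Of the 8 core proteins of the snoRNA particles none passed the adjusted threshold in edgeR with the filter on low counts, beside 0.0797% of all genes. An unadjusted p under 0.05 was found for 2, in opposite directions, beside 10.5% of all genes. GAR1, a core protein of box H/ACA particles, was lower in every IR+PR-LV library, with 52.1 ± 7.43 CPM in IR+NC-LV and 37.6 ± 3.60 CPM with the PRDM16 lentivirus. Its log2 fold change of -0.47 ± 0.11 had an adjusted p of 0.199 in edgeR and 0.0229 in DESeq2. DKC1, the pseudouridine synthase of the same particles, was at 185 ± 5.70 CPM and 208 ± 9.70 CPM, a log2 fold change of 0.17 ± 0.06 with an adjusted p of 0.391. The other box H/ACA core proteins, NHP2 and NOP10, gave -0.09 ± 0.16 and -0.23 ± 0.13.

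Among the 10 factors that assemble the particles 1 had an unadjusted p under 0.05, RPAP3, with a log2 fold change of 0.17 ± 0.07. None of the 10 genes that cut or load microRNAs had, and their values lay between -0.08 and 0.10. Of the 12 nonsense-mediated decay factors 1 had, SMG9, at -0.36 ± 0.14. These counts are near or under the 10.5% of all genes with such a p. The medians of the 4 lists, in this order with the core proteins first, were -0.02, 0.06, 0.05 and -0.01, beside 0.00 over all genes tested.

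Hosts outside the naming rule were read in the same way. Of 16 further snoRNA hosts 15 were tested and 3 had an unadjusted p under 0.05 (20%, beside 10.5% of all genes). EPB41L4A-AS1, a noncoding host, was lower with a log2 fold change of -0.27 ± 0.10, while NPM1 and NCL, which encode nucleolar proteins, were higher with 0.21 ± 0.06 and 0.18 ± 0.07. The noncoding host ZFAS1 gave -0.21 ± 0.10 and overlapping groups. EIF4A1 was listed at 0 counts in all 6 libraries. How reads shared between overlapping or repeated entries were counted is not given, so this is not taken as absence of its RNA. The reason for the 0 was not tested. Of 20 further microRNA hosts 4 had an unadjusted p under 0.05 (20%), with PANK2 (-0.23 ± 0.06) and NFYC (-0.31 ± 0.11) lower and MEST (1.01 ± 0.35) and IARS2 (0.14 ± 0.06) higher. The level of MEST was low, at 0.36 to 0.54 CPM in IR+NC-LV and 0.64 to 1.20 CPM in IR+PR-LV. None of these genes passed the adjusted threshold in edgeR with the filter on low counts. EEF1B2, another of the further snoRNA hosts, passed it without that filter.

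The calls on SNHG12, SNHG15 and SNHG17 depended on the procedure. Without a filter on low counts edgeR called all 3, with adjusted p of 0.0334, 0.00702 and 0.00234, among 354 genes in all (1.29% of those fitted), and DESeq2 called 151 genes in all. Their log2 fold changes stayed between -0.43 and -0.35, -0.54 and -0.36, and -0.61 and -0.38 over the 12 other settings.

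**Figure D4:**
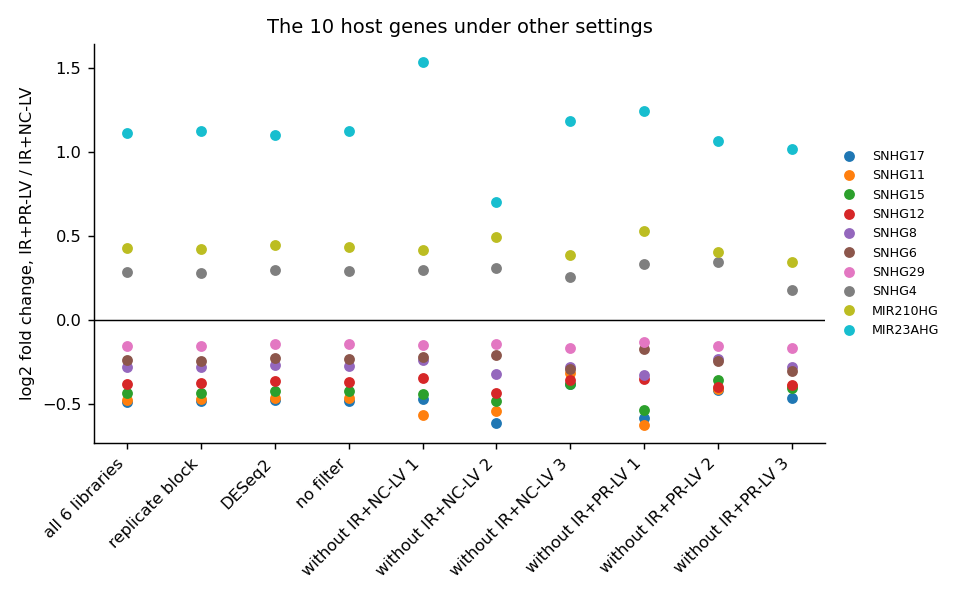
Log2 fold change of the 10 host genes with an unadjusted p under 0.05, computed from all 6 libraries, with the replicate number as a block, with DESeq2, without a filter on low counts and without each library in turn. All values stay on their side of 0, and MIR23AHG moves most, from 0.70 to 1.54.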

How the data were processed

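The study measured poly(A) RNA in 6 libraries of irradiated HK-2 cells, 3 with the control and 3 with the PRDM16 lentivirus, and groups were taken from the labels. The authors deposited for each library the counts of reads per gene, without normalization, and beside them TPM and FPKM. The deposited TPM and FPKM values follow from the counts and exon lengths, so tests used the counts and levels used TPM. The submitters' processing notes name CASAVA, featureCounts 2.0.1, DESeq2 1.16.1 and hg38, and the aligner, the annotation and the strand setting are not given in the sources used here.

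Counts of entries that share a name were added. The groups were compared with edgeR 4.0.16 (R 4.3.3), after filterByExpr (minimum count 10, minimum total count 15), TMM, glmQLFit and glmQLFTest without covariates, and Benjamini-Hochberg adjustment over all genes tested at a threshold of 0.05. SEs and 95% intervals follow from each log2 fold change with its F statistic, and CPM values are TMM-normalized. The procedure was tested on simulated data with known fold changes. DESeq2 1.42.0 and the other settings are described in the closing section. Limits for counts of 0 (3 counts of the total) cover counting error only.

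The members, gene lists and settings were chosen with earlier results of these data known. Genes were named by a rule: the 20 hosts with the highest mean TPM, every tested host with an unadjusted p under 0.05, and 10 well-known hosts (GAS5, MIR17HG, MIR22HG, MIR34AHG, MIR31HG, MIR100HG, MIR99AHG, MIR155HG, MIR210HG and MIR193BHG), with at most 3 genes of a list by smallest p. IARS2, NHP2, NOP10, ZFAS1, EIF4A1 and SNHG14 lie outside it and were named after their values were seen, as were the start windows. The files list no snoRNA or microRNA of their own, so their positions came from GENCODE release 29 and RefSeq. Overlaps were computed from the exon coordinates in the files.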

Additional observations from a re-analysis of the deposited data

How the results depend on the processing

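The results were computed again with RLE size factors, with DESeq2, without a filter on low counts, with at least 10 counts in every library, with the entries of a name not added together, with the replicate number as a block, and without each library in turn. Of the 346 values of named hosts under these 12 settings 330 kept their direction and their side of the threshold, 5 passed it and 11 turned sign. DESeq2 called 2 hosts (SNHG15 and SNHG17), 1 gene of the lists (GAR1) and 151 genes in all (1.02% of genes with an adjusted p). Without a filter on low counts edgeR called 3 hosts, 3 genes of the lists (GAR1, FBL and EEF1B2) and 354 genes in all (1.29%). The cause of the differences in calls between settings was not tested.

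Leaving out 1 library left the host calls at 0, gave 2 to 35 genes in all and 4 to 14 hosts with an unadjusted p under 0.05. The 14 came without IR+PR-LV replicate 1 and the 4 without IR+PR-LV replicate 2, and the 35 came without IR+NC-LV replicate 2. The share of all genes with such a p moved too, to 16.5% without IR+PR-LV replicate 1 (14 of 58 hosts) and 6.15% without IR+PR-LV replicate 2 (4 of 55 hosts). The median log2 fold change of the tested hosts ranged from -0.02 to 0.06 over the libraries left out.

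Values that turned sign did so when 1 library was left out, with ranges over the libraries left out of -0.084 to 0.019 for GAS5, -0.091 to 0.015 for SNHG7, -0.17 to 0.0061 for MIR4435-2HG, -0.39 to 0.16 for SNHG25, -0.14 to 0.16 for MIR31HG and -0.15 to 0.019 for MIR100HG. The 10 hosts with an unadjusted p under 0.05 kept their sign in every setting that gave a value.

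Whether the replicate numbers pair the libraries cannot be decided from 3 libraries in a group. Deviations of same-numbered libraries correlated at -0.0036, 0.31 and 0.15 over 6536 genes. IR+NC-LV replicates 2 and 3 correlated best with their own number, and replicate 1 with IR+PR-LV replicate 2 (0.23). With the replicate block edgeR called 0 hosts and 18 genes, and 8 hosts had an unadjusted p under 0.05, with MIR210HG and SNHG4 no longer among them.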
